A study of Mus musculus with 3 samples.

Results

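The SIPA1 family comprises 6 mouse genes here, Sipa1, Sipa1l1, Sipa1l2, Sipa1l3, Rap1gap and Rap1gap2, each coding for a GTPase-activating protein of the small GTPase RAP. The NKX2-5 peaks with a midpoint within 100 kb of the annotated bodies of these genes were collected from both deposited lists, giving 9 of 4418 peaks in library S1 and 11 of 5441 in library S4, a mean of 10 ± 1.41 (SD, n = 2 libraries). The 6 genes were chosen by the scores of these same peaks, because an intronic peak of Sipa1l3 had the highest score of both lists. Scores and counts are therefore given as a description, with no test. The study mapped the homeodomain factor NKX2-5 on chromatin of embryonic hearts by immunoprecipitation with an anti-NKX2-5 antibody and sequencing (ChIP-seq). Both libraries came from whole hearts of Parkes mice at E11.5, and the labels name no treatment, mutation or transgene. They do not say whether separate pools of hearts were used, so the spread between the libraries may be technical. Since whole hearts were used, no peak can be assigned to a cell type, and peak lists hold no expression by which the tissue label could be checked. An Input library was made as well and was not analysed here. Per Mb, the windows of the 6 genes held 4.44 peaks in S1 and 5.43 in S4, against 1.67 and 2.06 over the whole assembly, a comparison that the choice of genes by their peaks fixes in part.

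RAP proteins are switches of the RAS superfamily that are active with GTP and inactive with GDP. Exchange factors load them with GTP, and RapGAPs, which supply a catalytic asparagine, speed its hydrolysis and so switch them off. RAP signalling is known for its control of integrin adhesion and of cadherin junctions. SIPA1, first described in lymphocytes, and its relatives SIPA1L1, SIPA1L2 and SIPA1L3 carry a PDZ domain beside the RapGAP domain. SIPA1L1 is best known from postsynaptic spines and SIPA1L3 from epithelial polarity and the lens. RAP1GAP and RAP1GAP2 lack the PDZ domain, and RAP1GAP2 is known from platelets.

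Peaks of the 2 libraries that overlapped by at least 1 bp were taken as a shared region. Near the 6 genes there were 5 shared regions, of 2546 in all, and each was made of 1 peak per library. They lay in an intron of Sipa1l1, in and downstream of Sipa1l2, in an intron of Sipa1l3, and at a coding exon and its preceding intron in Rap1gap2. Sipa1 had peaks without a partner only, and Rap1gap had none. The sequence of each shared region is shown first, because these are the stretches where both libraries had a peak. All are from the plus strand of mm9, 5′ to 3′. Capitals mark exact matches, on either strand, to the NKX2-5 core AAGTG, its longer form TNAAGTG, the MEIS core TGACA and the spaced pair GTGNTGACA, so a match on the reverse strand appears as the reverse complement of these letters. The spaced pair contains the MEIS core but, of the NKX2-5 core, only its last bases GTG, so it can occur without AAGTG. The longer form contains the shorter one.

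The Sipa1l3 region is shown as 300 bp centred on the overlap of both peaks, at chr7:30246616-30246915. The other regions are shown as the 100 bp with the most core matches, or of equal ones the nearest to the midpoint, at chr12:83293848-83293947 for Sipa1l1, chr8:127971667-127971766 for the coding exon of Sipa1l2, chr8:127873487-127873586 for the downstream region of Sipa1l2 and chr11:74251856-74251955 for Rap1gap2.
Sipa1l3 intron: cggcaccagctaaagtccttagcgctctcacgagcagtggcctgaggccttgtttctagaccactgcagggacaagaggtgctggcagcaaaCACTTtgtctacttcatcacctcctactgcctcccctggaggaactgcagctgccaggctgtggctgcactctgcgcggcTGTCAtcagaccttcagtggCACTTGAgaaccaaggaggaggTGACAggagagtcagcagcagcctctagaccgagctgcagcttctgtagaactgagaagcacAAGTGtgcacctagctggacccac
Sipa1l1 intron: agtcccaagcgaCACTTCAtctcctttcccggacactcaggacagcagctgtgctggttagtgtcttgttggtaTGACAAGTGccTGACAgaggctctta
Sipa1l2 coding exon: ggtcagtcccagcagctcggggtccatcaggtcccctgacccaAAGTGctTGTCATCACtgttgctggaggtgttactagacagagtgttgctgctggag
Sipa1l2 downstream: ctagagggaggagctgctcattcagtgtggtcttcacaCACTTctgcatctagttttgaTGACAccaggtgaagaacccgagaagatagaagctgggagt
Rap1gap2 intron: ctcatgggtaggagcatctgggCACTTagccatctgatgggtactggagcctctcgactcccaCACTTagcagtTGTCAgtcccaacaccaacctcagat

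**Figure D1:**
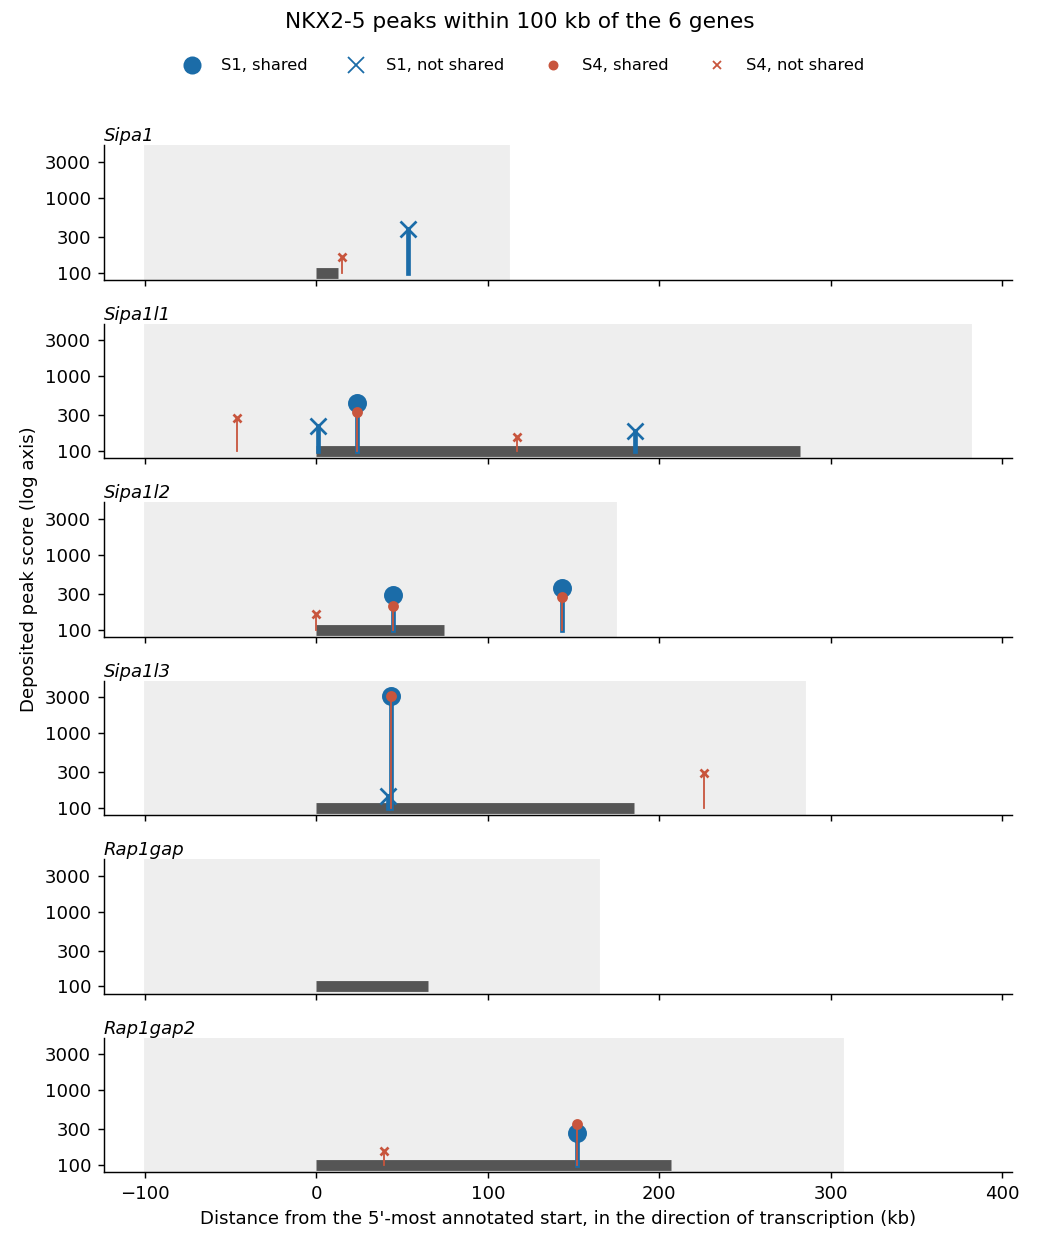
Peaks of S1 (large blue symbols) and S4 (small red symbols) near each gene, by distance from the 5′-most annotated start in kb (x) and by deposited score on a log axis (y). Circles are peaks that overlap one of the other library, crosses are peaks that do not, dark bars are gene bodies and grey marks the window of 100 kb on each side. The Sipa1l3 peak at 43.7 kb reached 3100 in both libraries, while no other peak exceeded 438, and Rap1gap had no peak.

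Sipa1l3 held the strongest peak of the family. The gene (ENSMUSG00000030583.8) lies on the minus strand at chr7:30105397-30290479, and the peak spanned chr7:30246274-30247259 in S1 and chr7:30246211-30247316 in S4. Its score, which from its values is taken to be the peak caller's -log10 p multiplied by 10, was 3100 in S1 and 3100 in S4. This was the highest value of each list, held by 9 peaks of S1 and 13 of S4, and the next lower scores were 3095 and 3097. The order among peaks tied at the top cannot be read. The midpoint lay in intron 2 of 22, which is 69025 bp long, at 43.7 kb downstream of the transcript start and 26.9 kb from the nearest exon. The peak was 986 bp wide in S1 and 1106 bp in S4, and the S1 peak lay wholly inside the S4 peak, with midpoints 3 bp apart. Over all shared regions made of 1 peak per library the midpoints were a median of 77 bp apart.

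The Sipa1l3 peak was wide for the family but not for the peaks of its score. Among the peaks tied at 3100 it had width rank 6 of 9 in S1 and 11 of 13 in S4, where widths ran from 448 to 6134 bp and from 1024 to 11100 bp. In S1 it was narrower than the peak in the window of Sipa1, at 986 against 1059 bp, and in S4, at 1106 bp, it was the widest of the 11 peaks. Both widths were above the list medians of 625 bp in S1 and 783 bp in S4. The nearest other shared region lay 445 kb away. The stretch covered by both peaks, 986 bp, had a GC content of 53.1% and 26 CpG dinucleotides, against a median GC of 48.1% over the shared regions. The other shared regions of the family were above that median as well, from 51.2% to 54.0%. All of its 20 evenly spaced 32-mers occurred once in the mm9 assembly.

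Other peaks in the window of Sipa1l3 were weak or lay at another gene. S1 had a second peak in the same intron at chr7:30248548-30249060, with a score of 144, rank 4209 of 4418, and a midpoint 2.04 kb from that of the strong S4 peak. It had no partner of its own in S4. S4 had a peak at chr7:30064591-30065307 with a score of 295, 40.4 kb beyond the 3′ end of Sipa1l3. That peak was in an intron of Spint2, a gene for a serine protease inhibitor, 2.05 kb downstream of its start, and S1 had none there. The window also held the starts of 9 other protein-coding genes, but the start nearest to the strong peak was that of Sipa1l3 itself.

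Sipa1l1 (ENSMUSG00000042700.8, chr12:83270407-83552769, plus strand), the largest of the 6 genes at 282 kb, held 3 peaks in each library and only 1 shared region. The shared peak was at chr12:83293408-83294199 in S1 with a score of 438 and at chr12:83293714-83294424 in S4 with a score of 333. It lay in intron 1, counted in the transcript with most exons, 22.6 kb downstream of the nearest annotated start in S1 and 22.9 kb in S4. The overlap was looser than at Sipa1l3. It covered 486 bp, 61.4% of the S1 peak and 68.4% of the S4 peak, and the midpoints were 266 bp apart, the widest of the 5 regions.

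The remaining peaks of Sipa1l1 were each found in a single library. S1 had a promoter peak at chr12:83270925-83271571, 84 bp downstream of an annotated start, with a score of 216, just above the list median of 212. S1 also had a peak in intron 5 with a score of 186, 186 kb into the gene. S4 had a peak 46.6 kb upstream of the gene with a score of 279 and one in intron 3 with a score of 153. No peak of the other library lay nearer to any of these than 22.8 kb. No other protein-coding gene starts within the window of Sipa1l1.

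Sipa1l2 (ENSMUSG00000001995.7, chr8:127941963-128016610, minus strand) was the member with 2 shared regions. The first covered a coding exon. The S1 peak, chr8:127971474-127972106 with a score of 292, lay wholly inside the S4 peak, chr8:127971403-127972153 with a score of 208. The midpoints were 12 bp apart and fell in exon 13 of 21, at 44.8 kb from the start. Of the 633 bp covered by both peaks, 319 bp (50.4%) were exon 13 and the rest was intron 12. Of 20 evenly spaced 32-mers, 19 occurred once in the assembly. The other came from an alternating run of T and G in the intron and occurred 7222 times.

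The second shared region of Sipa1l2 lay outside the gene, 68.5 kb beyond its 3′ end, the farthest from a gene body of all shared regions here. Its peaks were at chr8:127873020-127873891 in S1 with a score of 358 and at chr8:127872833-127873860 in S4 with a score of 272. The nearest protein-coding start was still that of Sipa1l2, 143 kb away. The 2 regions were 98.3 kb apart and were each other's nearest shared region. At the promoter, S4 alone had a peak, chr8:128016548-128017138, 0.233 kb upstream of the start, with a score of 161 and rank 4357 of 5441. Both shared regions scored lower in S4 than in S1, with log2 ratios of -0.39 and -0.49, as did the one of Sipa1l1 at -0.39. Scores rise with sequencing depth and were not scaled between libraries, so the ratio of a single region cannot be told apart from depth.

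Rap1gap2 (ENSMUSG00000038807.10, chr11:74196858-74403688, minus strand) held 1 shared region and went the other way. Its score was 265 in S1 and 358 in S4, a log2 ratio of 0.43, at chr11:74251500-74252068 in S1 and chr11:74251499-74252398 in S4. The S1 midpoint fell in coding exon 5, which is 45 bp long, and the S4 midpoint in intron 4, 0.138 kb from that exon. Only 7.91% of the stretch covered by both peaks was exon. The region lay 152 kb into the gene but 3.51 kb (S1) and 3.34 kb (S4) downstream of the start of a shorter transcript. S4 also had a peak in intron 2 with a score of 152, and no S1 peak lay within 112 kb of it.

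Sipa1 (ENSMUSG00000056917.5, chr19:5651185-5663707, minus strand), the shortest gene at 12.5 kb, had 1 peak per library in its window and no peak in its body. The S1 peak had a score of 381 and lay 41.1 kb beyond the 3′ end, at chr19:5609525-5610583, with its midpoint 4 bp from the start of Kat5, which codes for the acetyltransferase TIP60. The S4 peak had a score of 163 and lay 2.27 kb beyond the 3′ end, at chr19:5648600-5649225. Its nearest protein-coding start was that of Rela, a subunit of NF-κB, at 11.2 kb. The 2 peaks were 38.9 kb apart. This window was crowded, with the starts of 12 other protein-coding genes, so neither peak can be tied to Sipa1 by position.

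Rap1gap (ENSMUSG00000041351.9, chr4:137220641-137285782, plus strand) had 0 peaks in S1 and 0 in S4 within 100 kb. The nearest peak lay 165 kb away in S1 with a score of 150 and 195 kb away in S4 with a score of 195, both in Hspg2, the perlecan gene. Since only peaks with a score of at least 140 were deposited, weaker binding near Rap1gap would not be listed.

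The limit of 100 kb left a few strong peaks just outside. The farthest peak inside it was the S4 peak downstream of Sipa1l2 at 68.6 kb. The nearest outside it was an S4 peak of Sipa1l2 at 124 kb with a score of 336. At Sipa1 the next peaks were at 131 kb in S1, with a score of 2028, and at 132 kb in S4, with a score of 3100. These lay 2.21 kb and 0.967 kb from the nearest annotated start, that of Malat1, an abundant nuclear RNA without a protein product, and the S4 peak was 4425 bp wide. With the window widened to 250 kb, the number of shared regions was 12 in place of 5, and of the added ones 5 were around Sipa1 and 2 around Sipa1l2.

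**Figure D2:**
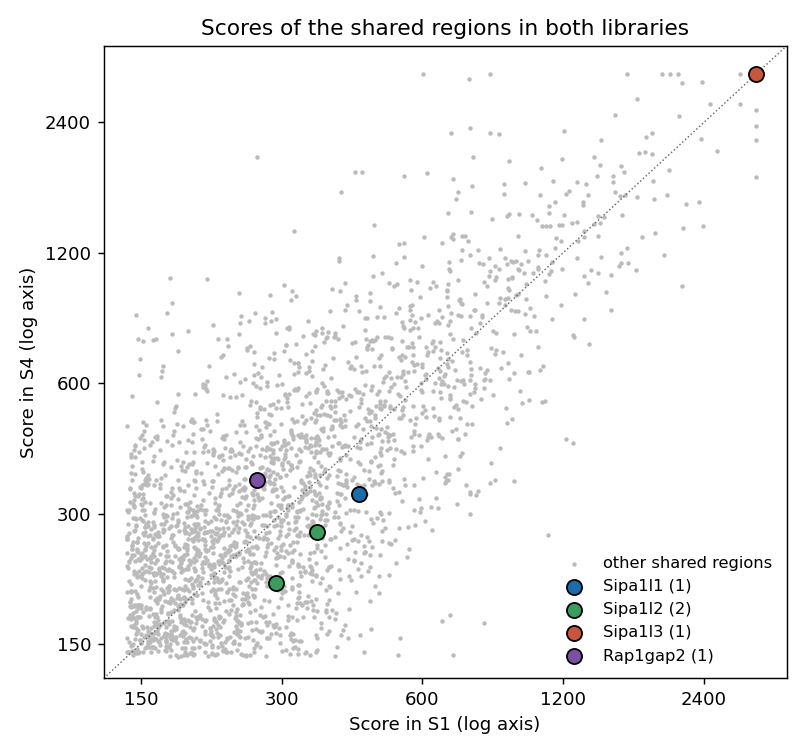
Score in S1 (x) against score in S4 (y), both on log axes, for the 2546 shared regions, with the 5 regions of the family in colour and the dotted line at equal scores. The Sipa1l3 region sits in the upper corner at 3100 in both libraries, and the other 4 lie among the bulk of the regions, between 208 and 438.

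Set against Sipa1l3, the other members were ordinary in score. The best peak of Sipa1l3 had 7.07 times the score of the next member in S1 (Sipa1l1, 438) and 8.65 times that in S4 (Rap1gap2, 358). Since 3100 is the tied top value of both lists, these ratios differ only through the lower score. Should the ties mark a ceiling of the score, which was not tested, both ratios are lower bounds. By the lower score of each region, Sipa1l3 tied for rank 1 of 2546 shared regions, Sipa1l1 was at rank 787, the downstream region of Sipa1l2 at rank 1074, Rap1gap2 at rank 1109 and the exonic region of Sipa1l2 at rank 1527. In S1, 7 of the 9 peaks scored above the list median of 212, and in S4, 6 of the 11 scored above the median of 223. The best peak of Sipa1l1 scored above that of Sipa1l2 in both libraries, at 438 against 358 in S1 and 333 against 272 in S4. Rap1gap2 changed place, since its best peak was below both in S1, at 265, and above both in S4, at 358.

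Sharing in the family was set beside that of the lists. Of the S1 peaks, 5 of 9 (55.6%, 95% Clopper-Pearson interval 21.2 to 86.3) had a partner, against 58.9% of all S1 peaks. Of the S4 peaks, 5 of 11 (45.5%, 16.7 to 76.6) had one, against 47.0%. The intervals cover counting error only, treat the peaks as independent, and are too wide to show a difference or a likeness. The Sipa1l3 peak is among the shared peaks of both libraries. Its choice as a top peak of both lists fixed this in advance. The 4 unshared S1 peaks scored from 144 to 381 and the 6 unshared S4 peaks from 152 to 295. By position, 10 of the 20 peaks were in introns, 3 in exons, 4 in intergenic sequence and 3 within 1 kb of a transcript start, where the start at Sipa1 was that of Kat5. A limit of 5 kb raised the last number to 6, since the peaks of Rap1gap2 and the one in Spint2 then counted.

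The counts were set beside all 22380 protein-coding genes. A peak within 100 kb was found for 5 of the 6 members in S1 and for 5 in S4, against 38.4% and 44.6% of all protein-coding genes. A shared region within 100 kb was found for 4 of 6, against 24.2%. These 4 had a shared region inside the gene body as well, against 4.82% of all genes. Long genes offer more room for a peak. Of the genes with a body of at least 50 kb, a limit chosen after seeing the data, 31.8% had a shared region within 100 kb and 15.1% had one in the body, and 4 of the 5 members of that length did. A peak within 1 kb of an own start was found for 1 member in S1 (Sipa1l1; 4.23% of all genes) and for 1 in S4 (Sipa1l2; 5.61%). Because the family was assembled around one of its peaks, these shares are no evidence about the family.

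**Figure D3:**
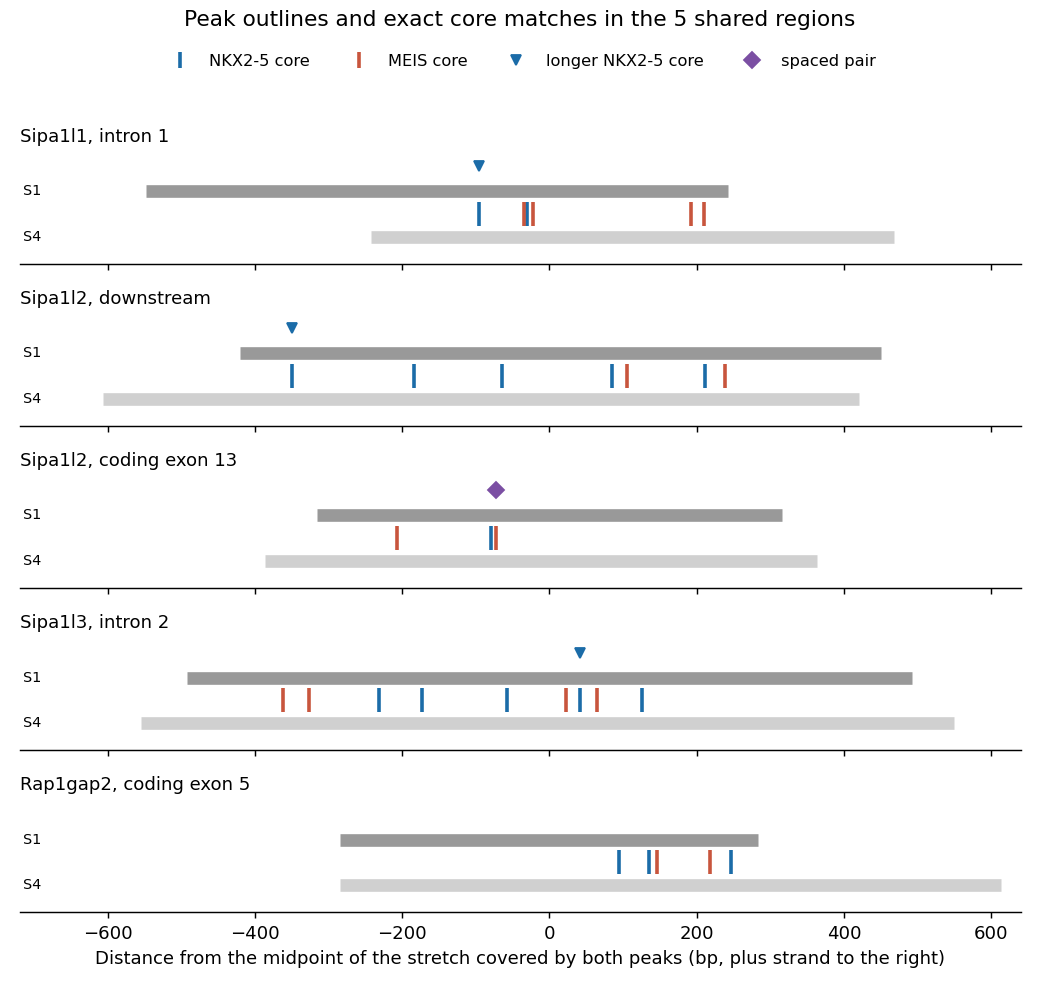
Outlines of the S1 peak (dark grey) and the S4 peak (light grey) of each shared region by distance in bp from the centre of their overlap (x), with exact matches to the NKX2-5 core and the MEIS core as ticks and to the longer NKX2-5 core and the spaced pair as symbols above. Every region holds both cores, and the spaced pair appears only in the exonic region of Sipa1l2, 73 bp left of the midpoint.

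The regions of the family held the cores of both factors, as most shared regions do. NKX2-5 binds AAGTG, and MEIS factors, homeodomain proteins of the TALE class, bind TGACA. The NKX2-5 core AAGTG was present in the stretch of all 5 regions, against 89.9% of the 2546 shared regions, and TGACA in all 5, against 86.8%. TNAAGTG was present in 3 of 5 against 54.7%, and the spaced pair GTGNTGACA in 1 of 5 against 15.4%. Stretches differ in length, so the 100 bp to either side of each midpoint were also searched. There AAGTG was present in 5 of 5 against 64.0% of regions, TGACA in 3 of 5 against 64.5%, TNAAGTG in 2 of 5 against 32.4% and the spaced pair in 1 of 5 against 9.54%. Within 25 bp of the midpoint AAGTG was present in 0 of 5, against 22.2%. The lists give no summits, so the midpoint is only a stand-in for the centre of binding.

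In Sipa1l3, AAGTG occurred 5 times, as in the downstream region of Sipa1l2. Of all shared regions 12.5% had 5 or more, and the median was 2. These counts were not scaled for length. Both stretches, of 986 bp at Sipa1l3 and 841 bp at Sipa1l2, were longer than the median stretch of 627 bp. Distances are given to the first base on the plus strand. The longer form lay 42 bp right of the Sipa1l3 midpoint, and TGACA lay 22 bp and 64 bp right of it, so that 3 core matches fell within a stretch of under 50 bp in the printed sequence. The spaced pair was not found in this region. In Sipa1l1 the cores were fused. TGACA began 34 bp and AAGTG 30 bp left of the midpoint and shared 1 base, in the run TGACAAGTG, and a further TGACA followed at 23 bp. That run was searched for after it was seen, and 1.89% of all shared stretches held it.

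In the coding exon of Sipa1l2 the spaced pair lay on the reverse strand 73 bp left of the midpoint, preceded by AAGTG at 80 bp, and all of it was within exon 13. In Rap1gap2 the 3 AAGTG and 2 TGACA matches lay from 94 to 247 bp right of the midpoint, in intron 4 and not in the exon. The downstream region of Sipa1l2 had its cores spread over the stretch, with AAGTG at 85 bp and TGACA at 106 bp right of the midpoint as the closest neighbours of different kind. The GATA core AGATAA was present in 1 of 5 stretches (Rap1gap2; 39.0% of all) and the T-box core AGGTGT in 3 of 5 (both of Sipa1l2 and Sipa1l3; 33.2% of all). Both were chosen after seeing the data.

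**Figure D4:**
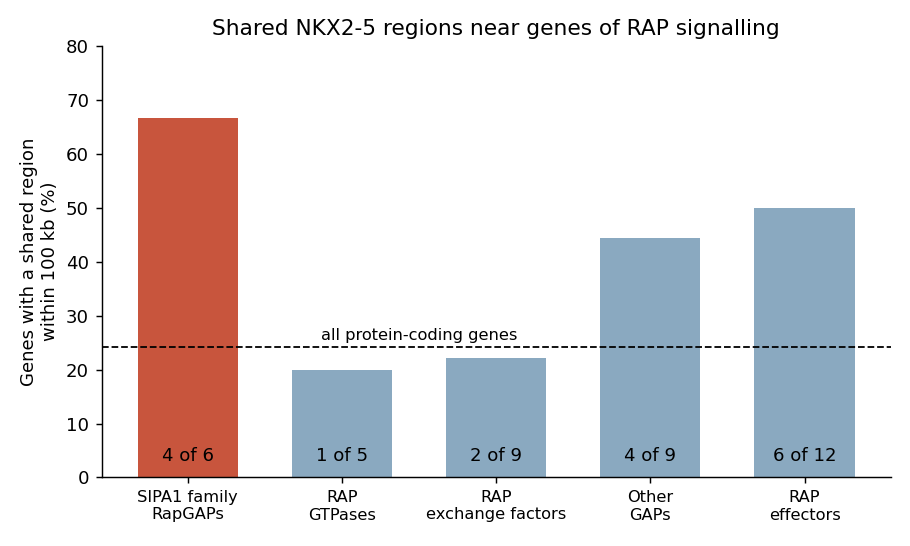
Percent of genes with a shared region within 100 kb of the body (y, from 0) for the 6 RapGAP genes and for 4 lists of RAP signalling genes, with counts in the bars. The dashed line is the share of all protein-coding genes, 24.2%, and the shares run from 20% of the RAP GTPases to 4 of 6 for the RapGAP genes. The share of genes with a body of at least 50 kb, 31.8%, is not drawn. The RapGAP genes were chosen by the scores of these same peaks, so their bar is no evidence about the family.

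The other genes of RAP signalling were examined in 4 lists. Of 35 genes, 13 (37.1%) had a shared region within 100 kb. The share was 24.2% of all protein-coding genes and 31.8% of those with a body of at least 50 kb. Most of the 35 genes were of that length, and the lists were not matched for it. Of the 5 RAP GTPases only Rap1a had any, with 3, the strongest 14.0 kb upstream of the gene at scores of 857 in S1 and 701 in S4. Rap1b, Rap2a, Rap2b and Rap2c had none. Of 9 exchange factors 2 had one. The region of Rapgef3, which codes for the cAMP sensor EPAC1, scored 508 and 440 but lay 97.2 kb from the gene and nearest to the start of Vdr. A second one lay in the gene itself and scored 276 in S1 and 487 in S4, lower than the first in S1 and higher in S4. Rapgef5 had one in intron 25, at 356 and 216.

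Of 9 genes for other proteins with a RapGAP-like domain or with GAP activity on RAS or RAP, 4 had a shared region. The region near Tsc2, the gene for tuberin, scored 396 and 354 and lay nearest to the start of Nthl1, a DNA repair gene. Rasa3, a GAP for RAS and RAP, had one in intron 3 at 310 and 305. Of 12 effectors 6 had one. The highest by the lower of both scores were Raph1, which codes for lamellipodin, at 319 and 488 and 42.1 kb upstream, and Radil, a RAP effector in cell adhesion, at 279 and 281 in intron 2. No region of these lists reached the score of the Sipa1l3 intron.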

How the data were processed

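ChIP-seq of NKX2-5 was done on hearts at E11.5 in 2 libraries, S1 and S4, with 1 Input, which was not analysed here. The authors sequenced on a Genome Analyzer IIx, placed reads on mm9 by Bowtie and ran MACS on each library by itself. The submitters' processing notes also name CASAVA 1.4. Settings, and whether the Input served as control, are not given in the sources used here. Judging from its values, the score that the authors deposited is -log10 p multiplied by 10, and no scaling makes it comparable from library to library. Start and end, the other columns used, are positions in bp. Read numbers were not used, so the depth and the precision of a score are unknown.

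Gene bodies and transcripts were those of GENCODE M1 on NCBIM37 (mm9), in which all peaks fitted. A peak belonged to a gene when its midpoint was within 100 kb of the body. Exon and intron numbers refer to the coding transcript with most exons. Peaks were shared at an overlap of at least 1 bp, checked with bedtools 2.31.1. Motifs were exact matches on either strand. Named regions are all shared regions of the members, the best peaks, and for each pathway list the 2 genes whose region had the highest lower score. The members and lists were chosen with earlier results of these data known. No test was run, since there is 1 condition and the members were chosen by these scores. The joining steps recovered planted overlaps and motifs when tested on simulated data. Alternatives were other windows, scores, overlaps, promoter limits and motif windows, and each library alone. Python 3.11.15, numpy 2.4.6, scipy 1.17.1, pysam 0.24.0 and matplotlib 3.10.9 were used.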

Additional observations from a re-analysis of the deposited data

How the results depend on the processing

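Of 45 alternatives, 31 left a count within 1.5 times its value, or a share or score ratio within its error, and 14 did not. With 2 libraries, leaving either out cannot move the score ratio beyond its SD. The shares were judged by their wide intervals, and all of their alternatives stayed inside. These cases therefore say little about stability. The mean number of peaks, 10, was 6.50 in the gene bodies alone and 20.5 within 250 kb, and ranged from 9 to 11 with either library left out. Shared regions, 5, became 12 within 250 kb and 3 with midpoints within 150 bp, a rule that drops Sipa1l1 and Rap1gap2 and leaves 2 member genes of 4. Wider or narrower windows and stricter overlap change these counts by construction. The score ratio of Sipa1l3 to the next member, 7.86 ± 1.12 (SD, n = 2), was 7.07 in S1 alone and 8.65 in S4 alone. The next member was Sipa1l1 in S1 but Rap1gap2 in S4, so the mean joins unlike ratios. Their spread comes from the lower scores alone, because the upper one is the tied top value of 3100 in both lists. If these ties mark a ceiling of the score, which was not tested, the ratios are lower bounds. The mean ratio was 1.0 when widths replaced scores and 963 when ranks did. All peaks tied at 3100, 9 in S1 and 13 in S4, were given rank 1. The rank ratio therefore depends on this rule for ties. Promoter peaks, 3, became 6 with a limit of 5 kb. In windows of 25 bp, the NKX2-5 core, its longer form and the spaced pair were each in 0 regions, against 5, 3 and 1 in the whole stretch, and the MEIS core was in 1, against 5. Of all shared regions, 22.2%, 9.43% and 2.32% held the first 3 in such windows, and 25.1% held the MEIS core. With shares this low, the drop says little about the 5 regions. In windows of 100 bp the MEIS core was in 3, against 64.5% of all shared regions. Genes of the RAP lists with a shared region fell from 13 to 7 of 35 in the gene bodies alone. The share of all protein-coding genes fell as well, from 24.2% to 4.82%. For genes with a body of at least 50 kb it fell from 31.8% to 15.1%. No paired analysis was possible because the Input has no peaks here and the ChIP libraries form 1 group. The depth of the libraries is unknown and limits the reading of every peak found in 1 library only.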

Other observations

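The 6 shared regions with the highest score in both libraries, a set examined after its members were seen, included 4 in introns. Their host genes were Sipa1l3, Rgs3, Srgap1 and Odz4. Odz4 codes for a teneurin, a transmembrane adhesion protein. The remaining 2 regions were intergenic in the annotation used, 33.4 kb from the start of Zfp777 and 363 kb from that of Pgk2. Of the 6 regions, only that of Sipa1l3 was checked for sequence repeated in the assembly. Whether the others hold such sequence was not tested.

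The 6 regions differed in form. The stretch covered by both peaks was 986 bp at Sipa1l3, 943 bp at Rgs3, 952 bp near Zfp777 and 1035 bp at Srgap1, against 1923 bp at Odz4 and 6134 bp far from Pgk2. The last had a GC content of 63.5%, above the 44.3% to 53.1% of the others, and 0.815 AAGTG per kb against 3.18 to 6.30 per kb. Sipa1l3 had 5.07 per kb. The spaced pair GTGNTGACA was found in 1 of the 6, at Srgap1.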
